A study of Schizosaccharomyces pombe with 72 samples.

Results

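The transcripts described here ran antisense to 245 genes of Schizosaccharomyces pombe, the fission yeast, and were selected on their rise in cells that lacked both CHD-family nucleosome remodelers. They were chosen by 3 measured ratios of experiment B, each the log2 of (mean CPM + 1) in a mutant over the same in WT, where CPM is a library's estimated count for an entry per 1000000 counted. An antisense entry of at least 600 and under 3000 bases was a member if this ratio was at least 1.5 in hrp1Δhrp3Δ and below 1 in both hrp1Δ and hrp3Δ. Of 13994 entries quantified, 6997 were antisense copies of an annotated transcript, 3729 of these met the name and length limits and are called eligible below, and 245 met all limits. The hosts of 243 members were protein-coding genes and those of 2 were pseudogenes.

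Nucleosome remodelers of the CHD family slide nucleosomes into evenly spaced arrays over the bodies of transcribed genes. Fission yeast has a pair of them, Hrp1 and Hrp3, of which Hrp3 is the main one over gene bodies. Where nucleosome arrays are disturbed, RNA polymerase II can start inside a gene and on the opposite strand, which gives cryptic antisense transcripts that are usually scarce. Prf1, the fission yeast counterpart of RTF1, works with the elongating polymerase and the Paf1 complex and has its own part in keeping cryptic transcription low.

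Polyadenylated RNA was sequenced with strand information from 72 libraries, 3 biological replicates for each of 24 groups, all h+ ade6-M216 ura4-D18 leu1-32 and grown in rich YES medium at 32 ºC to mid-log phase. Each genotype was 1 strain, so p-values measure the spread between cultures of that strain. Experiment B held WT, hrp1Δ (hrp1del::kanMX), hrp3Δ (hrp3del::kanMX) and hrp1Δhrp3Δ (hrp1del::kanMX hrp3del). Experiment A, in 2 batches with a WT each, held hrp1Δ, hrp3Δ and 9 other deletions, with fft2Δ, fft3Δ, mit1Δ, rrp1Δ, rrp2Δ, irc20Δ and swr1Δ (each by kanMX) in batch 1 beside hrp1Δ and hrp3Δ, and with fft1Δ and snf22Δ (by hygMX) in batch 2. Experiment C held WT and a pair of C-terminal swaps, hrp3-CT(hrp1) (hrp1del::kanMX hrp3del::hrp3-CT(hrp1)) and hrp1-CT(hrp3) (hrp1del::hrp1-CT(hrp3) hrp3del), so both swap strains also lack the other CHD gene by label. Experiment D held WT, the same hrp1Δhrp3Δ strain as B, prf1Δ (prf1del) and hrp1Δhrp3Δprf1Δ (hrp1del::kanMX hrp3del prf1del).

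Library totals ranged from 7222368 to 10013173 counts in B, 5203039 to 14320852 in C, 470206 to 38590464 in batch 1 of A and 3657 to 6278193 in D. In D 3 libraries stood apart. Of these, hrp1Δhrp3Δprf1Δ replicate 2 held 3657 counts and had all 245 members at 0. WT replicate 3 and hrp1Δhrp3Δ replicate 1 had protein-coding sense profiles that correlated at only 0.683 and 0.567 with the median profile of all 72 libraries. Values of D are therefore given with and without these 3 libraries. The level of each deleted gene was compared with its label. Sense hrp3 was at 0 in every hrp1Δhrp3Δ library of B and D, and sense hrp1 averaged 9.70 CPM in hrp1Δ of B against 51.1 in WT. Sense hrp3 averaged 25.3 CPM in hrp3Δ of B against 55.8, lower but not absent. Sense prf1 was 61.8, 53.8 and 60.3 CPM in prf1Δ against 153, 128 and 3.04 in WT (edgeR adjusted p = 0.39, and 0.00025 without the 3 libraries). In hrp1Δ of A sense hrp1 averaged 14.6 CPM against 21.2 in WT, a log2 change of −0.60 that did not pass the test (edgeR adjusted p = 0.09). Some labels were not borne out, or only in part. Libraries labelled hrp3Δ in A had 28.2 CPM of sense hrp3 against 23.3 in WT. That WT was low beside WT of batch 2, at 58.9 CPM of hrp3 and 79.2 of hrp1. Libraries labelled hrp1-CT(hrp3) had 83.4 CPM of hrp3 against 62.3, and those labelled hrp3-CT(hrp1) had 87.1 CPM of hrp1 against 90.4. The deeper libraries labelled hrp1Δhrp3Δprf1Δ had 64.6 and 31.6 CPM of hrp1. WT of D held 126, 103 and 2.54, and hrp1Δhrp3Δ replicates 2 and 3 of D held 13.9 and 23.5. Without the 3 libraries hrp1 was called below WT in this triple mutant (log2 change −1.46, edgeR adjusted p = 0.014), but not with them (adjusted p = 0.35). These groups are called by their labels below with that reservation. By label each swap gene carries the C-terminal part of the other CHD gene, which could add reads to that gene. How many reads came from it was not tested.

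Short stretches of 4 members are given as examples, chosen for low GC content and so not typical of their entries. Each is the 100-base window of lowest GC content of the antisense entry, read 5′ to 3′ on the antisense strand, with runs of at least 5 A or 5 T in capitals. The sequences were read by gene ID from the RefSeq annotation of assembly ASM294v3, where 240 of 245 members had a coding sequence as long as the quantified entry. The antisense entries of alx1 (chromosome I, bases 1180 to 1279 of 2106) and byr2 (chromosome II, bases 1570 to 1669 of 1980) are shown because they headed the members by level. Those of mcm5 (chromosome I, bases 1996 to 2095 of 2163) and wdr44 (chromosome I, bases 576 to 675 of 2802) are shown because they were far higher in prf1Δ than in the double mutant, a choice made after their values were seen.
alx1: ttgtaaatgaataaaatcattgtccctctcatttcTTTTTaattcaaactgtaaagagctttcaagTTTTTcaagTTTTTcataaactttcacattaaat
byr2: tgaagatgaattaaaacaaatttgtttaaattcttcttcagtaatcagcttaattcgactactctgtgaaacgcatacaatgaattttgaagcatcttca
mcm5: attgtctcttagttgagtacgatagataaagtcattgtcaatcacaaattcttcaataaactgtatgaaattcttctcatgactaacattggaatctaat
wdr44: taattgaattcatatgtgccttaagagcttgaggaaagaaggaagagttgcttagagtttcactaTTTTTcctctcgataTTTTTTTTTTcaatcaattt
The windows held 24.0%, 29.0%, 29.0% and 30.0% GC in that order. Runs of AAAAA or TTTTT, which covers both strands, occurred in 99.6% of the members with sequence and in 98.0% of the eligible entries, at 6.34 and 5.68 runs per kilobase.

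Within experiment B the members were scarce transcripts. The WT median over members was 0.48 CPM, that of the hrp1Δ libraries 0.99, that of hrp3Δ 1.43 and that of hrp1Δhrp3Δ 4.43, which corresponds to a median of 4 counts per WT library and 35 per double mutant library. Summed over the members, WT libraries held 225, 232 and 197 CPM, hrp1Δ 314, 352 and 362, hrp3Δ 558, 490 and 511, and hrp1Δhrp3Δ 1374, 1407 and 1377. The place of the double mutant above both single mutants follows from the rule, which used these libraries. By the rule no member reached a log2 ratio of 1 in a single mutant, yet the median ratio in hrp3Δ was 0.75 against 0.50 over all eligible entries, and in hrp1Δ 0.31 against 0.17. The added 1 CPM holds down the ratio of such low levels. With 0.25 CPM added in its place the median of the same members was 1.23 in hrp3Δ, and 173 of the 245 exceeded 1 there. The name of the list, a rise confined to the double mutant, therefore rests on the pseudocount, and the members are best called antisense entries that rose further in the double mutant than in either single mutant. Membership itself moved with that choice, since only 60 of the 245 also met the rule with 0.25 CPM added and 2 with 5 CPM. It moved with scaling and single libraries too. Of the 245, 137 also met the rule with TMM-scaled library totals and 174 without WT replicate 1.

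**Figure D1:**
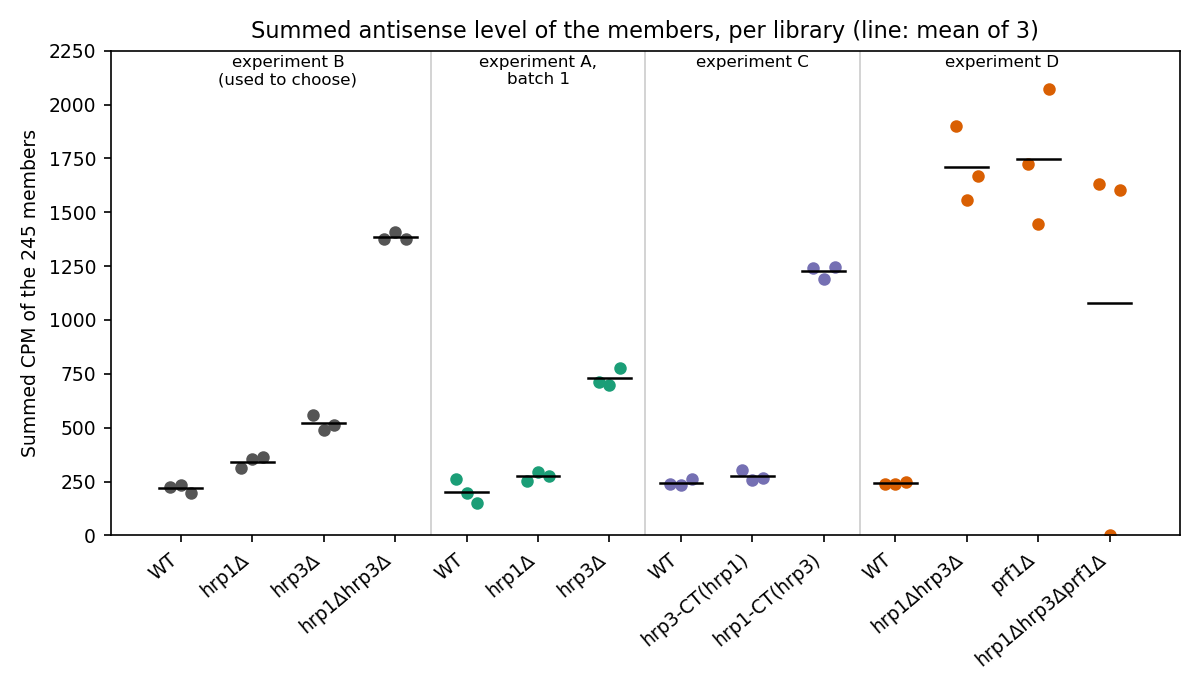
Summed antisense CPM of the 245 members in each library (points) with the group mean (line), for WT, hrp1Δ, hrp3Δ and hrp1Δhrp3Δ of experiment B, which chose the members, and for groups of experiments A (batch 1), C and D, which did not. The double mutant of D (1559 to 1902) and the libraries labelled hrp1-CT(hrp3) (1192 to 1247) lie far above their WT, and the point at 0 is the library of 3657 counts.

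Some hosts illustrate the range. Antisense alx1 (SPAC2G11.05c, a BRO1-domain protein) had 7.68, 6.78 and 3.71 CPM in WT of B, 5.32, 7.19 and 5.80 in hrp1Δ, 16.0, 11.2 and 10.5 among hrp3Δ libraries, and 29.7, 40.8 and 33.2 for hrp1Δhrp3Δ. Antisense byr2 (SPBC1D7.05, the MAP kinase kinase kinase of the mating pathway) had 9.02, 6.99 and 9.66 CPM in WT, 3.43, 3.70 and 4.31 among hrp1Δ libraries, 10.2, 11.4 and 11.49 among hrp3Δ libraries, and 34.1, 30.6 and 34.2 in hrp1Δhrp3Δ. It thus lay below WT in all 3 hrp1Δ libraries and highest in the double mutant. Antisense mcm5 (SPAC1B2.05, a subunit of the replicative MCM helicase) ran from 2.40 to 4.44 CPM in WT and from 11.0 to 13.8 in the double mutant. The widest margins over the higher single mutant, on the log2 scale, were those of erm2 (2.27), wtf19 (2.20) and fol1 (2.04). For fol1, dihydropteroate synthase, that margin came from 7.00 and 4.69 CPM in 2 double mutant libraries while the other held 0, and in D all its libraries were at 0.

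The limits of the list were gradual. The entries just inside the limit of 1.5 in the double mutant were hnt3, lsc1 and rtf1 at 1.5029, 1.5038 and 1.5041, and the entries just outside were rog1, frg1 and phf2 at 1.4996, 1.498 and 1.4971. At the limit of 1 in a single mutant, nts1, fra1 and lcl3 fell inside at 0.9994, 0.9923 and 0.9894 in hrp3Δ, and rmr1, SPBP4H10.18c and SPAPB2B4.06 fell outside at 1.0027, 1.004 and 1.0045, the last in hrp1Δ.

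To ask whether the rise recurred in libraries that did not choose the members, the same strain was compared with WT in experiment D. The members were higher again. Their median log2 ratio was 1.95 in hrp1Δhrp3Δ, and 1.98 without the 3 libraries, against 1.03 and 1.06 over all eligible entries, and 220 of 245 members reached a ratio of 1 (221 without the 3 libraries). The 507 eligible entries with a ratio of at least 1.5 in hrp3Δ of B rose more than the members, with medians of 2.34 and 2.42. The summed level was 237, 239 and 248 CPM in the WT libraries and 1902, 1559 and 1670 in the double mutant, so the groups did not overlap. In this bulk RNA, more cells with antisense transcripts and more transcripts per cell cannot be told apart. edgeR's quasi-likelihood test, adjusted over all entries, tested 208 of the 245 members and called 136 higher, against 36.8% of the eligible entries tested and 12.7% of all entries. Without the 3 libraries it tested 240 and called 201 higher, against 46.5% of eligible entries. It called 0 lower in either fit, with 0 and 1 lower at an unadjusted p under 0.05, and DESeq2 also called 0 lower. A member scarce in WT could pass the filter on low counts only through a group where it was high, so these shares describe the tested members alone. Leaving out WT replicate 1 or WT replicate 2 of D lowered the count of 136 to 53 or 68. A fit of the 2 groups alone called 0 of 117 tested, with 82 higher at an unadjusted p under 0.05.

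**Figure D2:**
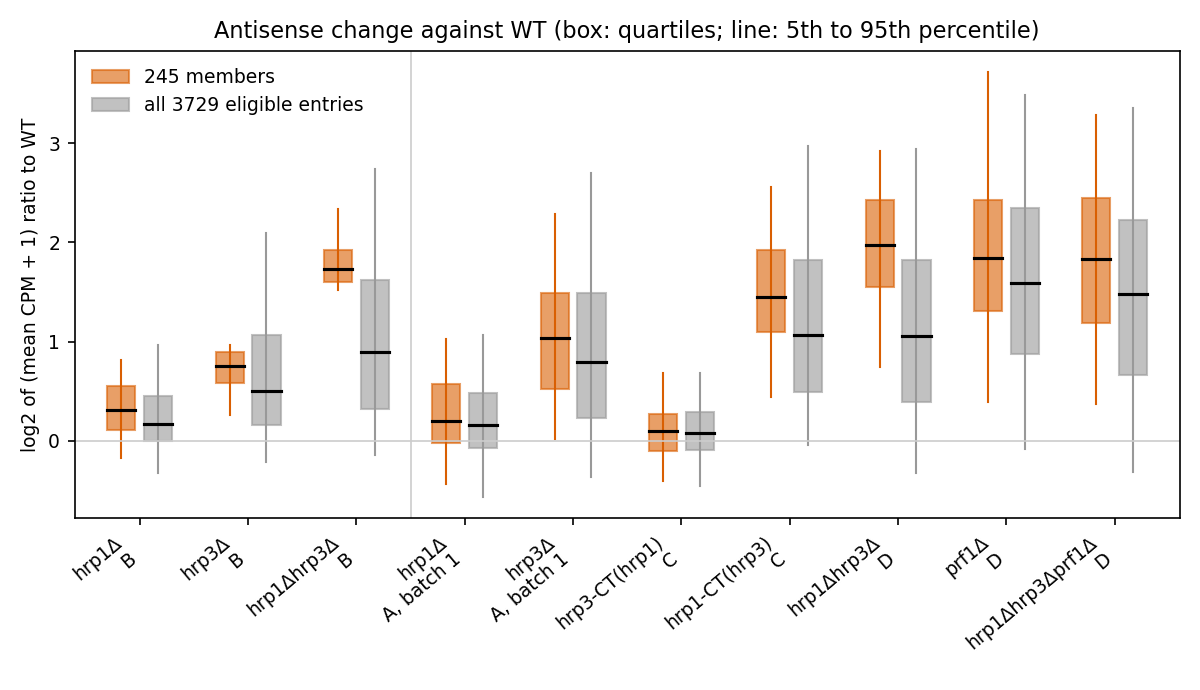
Log2 of the (mean CPM + 1) ratio to WT for the 245 members (orange) and all 3729 eligible antisense entries (grey), as quartile boxes with the median and a line from the 5th to the 95th percentile, for experiment B, which chose the members (left of the vertical line), and experiments A, C and D (D without the 3 libraries that stood apart). The medians of the members are 1.98 in the double mutant of D, 1.03 in libraries labelled hrp3Δ of A and 1.45 in libraries labelled hrp1-CT(hrp3).

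Antisense alx1 had 106, 43.5 and 59.3 CPM in the double mutant of D against 3.77, 12.7 and 21.8 in WT, where the WT libraries themselves differed several-fold. Its log2 change was 1.89 ± 0.90 (SE, edgeR adjusted p = 0.23), and 2.62 ± 0.50 (adjusted p = 0.0041) without the 3 libraries. Antisense fap1 (L-pipecolate oxidase) had 4.05, 20.4 and 19.1 CPM against 0.707, 0.373 and 0.507, a log2 change of 4.31 ± 0.79 (adjusted p = 0.0032). Antisense tfs1 (the transcription elongation factor TFIIS) had 7.20, 10.4 and 7.82 CPM against 0.235, 0 and 1.01 (adjusted p = 0.0088), with too few WT counts for a fold. Each of these had double mutant libraries wholly above WT. Antisense hnt3, an aprataxin-like protein at the edge of the list, did not recur, with 0, 7.89 and 1.62 CPM against 7.54, 4.85 and 1.01 (adjusted p = 0.59). Antisense fft1, from the gene of a FUN30-type remodeler and named after its values were seen, was called higher without the 3 libraries (2.03 ± 0.56, adjusted p = 0.025) but not with them (1.51 ± 0.80, adjusted p = 0.30).

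Experiment A gave a second view of the single mutants. In hrp1Δ the members stayed near WT, with a median log2 ratio of 0.20 against 0.16 over eligible entries and 15 of 245 at 1 or more. In the libraries labelled hrp3Δ the median was 1.03 against 0.79, and 132 of the 245 members reached 1. Summed levels were 262, 198 and 150 CPM in WT, 252, 292 and 278 in hrp1Δ and 710, 700 and 776 in libraries labelled hrp3Δ. The last group lay wholly above both others. For comparison, the 507 eligible entries with a ratio of at least 1.5 in hrp3Δ of B had a median of 2.19 in the libraries labelled hrp3Δ of A, more than that of the members, a difference given as a description. Of the 245 members, 78 combined a ratio of at least 1.5 in the double mutant of D (without the 3 libraries) with ratios below 1 in both single mutants of A, which is 31.8% against 9.90% of the eligible entries. The rule chose members for a high ratio in that double mutant strain, and 191 of the 245 reached 1.5 there in D. The gap is therefore no finding about the single mutants, whose low ratios the added 1 CPM also holds down.

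In A 52 of the 245 members passed the filter on low counts. As in D, a scarce member could pass only through a group where it was high, so the shares below describe the tested members alone. Of these 52, 37 were called higher in libraries labelled hrp3Δ, against 55.2% of the eligible entries tested and 22.2% of all entries, and 32 were higher in libraries labelled hrp3Δ than in hrp1Δ, against 49.3%. With no filter on low counts 106 of the 245 were called higher in libraries labelled hrp3Δ, and the share of eligible entries in that fit was not computed. In hrp1Δ 3 were called higher, against 8.04% of eligible and 10.9% of all entries, and 4 were called lower, against 4.20%. These were SPAC22F8.05, nth1 and wdr44, and taz1, alx1, gst3 and byr2, and without WT replicate 1 edgeR gave 0 higher calls (14 at an unadjusted p under 0.05), with 5 and 6 without WT replicates 2 and 3. The 4 lower calls became 1, 3 and 4 without WT replicates 1, 2 and 3, and 1, 2 and 2 without hrp1Δ replicates 1, 2 and 3. Antisense byr2 had 3.94, 4.39 and 2.48 CPM in hrp1Δ, 11.9, 7.98 and 2.58 in WT and 16.2, 15.3 and 21.3 in libraries labelled hrp3Δ. Its log2 change was −1.18 ± 0.33 in hrp1Δ (adjusted p = 0.012) and 0.84 ± 0.30 in libraries labelled hrp3Δ (adjusted p = 0.030). The hrp1Δ and WT libraries overlapped, since WT replicate 3 lay at 2.58 CPM.

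In the other 9 deletions of A, 9 calls were higher and 11 lower over all of them. Medians over the 245 lay between −0.02 in rrp2Δ and 0.15 in fft3Δ. Members called higher numbered 2 of 52 tested in fft2Δ (background 5.29%), 5 in fft3Δ (7.17%), 1 in rrp2Δ (0.579%) and 1 in irc20Δ (1.81%). None was called higher by edgeR in mit1Δ (0.869%), rrp1Δ (0.217%), swr1Δ (0.941%), fft1Δ (0%) or snf22Δ (4.65%), where 3, 1, 2, 0 and 2 members were higher at an unadjusted p under 0.05, with 40 members tested in the last pair. Members called lower numbered 2 in fft2Δ (3.48%), 3 in fft3Δ (2.61%), 2 in irc20Δ (1.52%), 1 in swr1Δ (1.01%) and 3 in snf22Δ (7.32%). Antisense wdr44, from a gene of a WD-repeat protein, accounted for a call in each of fft2Δ, fft3Δ, rrp2Δ and irc20Δ. All 3 WT libraries of that batch listed it at 0. These calls, and its call in hrp1Δ above, thus rest on a WT level that was not detectable at this depth. Antisense alx1 was called lower in fft2Δ, fft3Δ, irc20Δ and snf22Δ, with a log2 change of −2.80 ± 0.40 (adjusted p = 0.00015) in the last. Like wdr44, alx1 is 1 member that recurred across deletions, and each batch of A shares 1 set of WT libraries.

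In experiment C the members were higher in libraries labelled hrp1-CT(hrp3) than in those labelled hrp3-CT(hrp1). The sense levels of hrp1 and hrp3 went against both labels: they averaged 44.0 and 83.4 CPM in libraries labelled hrp1-CT(hrp3), 87.1 and 42.4 in those labelled hrp3-CT(hrp1), and 90.4 and 62.3 in WT. Whether the swap labels were exchanged was not tested. Which swap strain the higher libraries came from was thus not settled here, and directions below are those of the labels. The libraries labelled hrp1-CT(hrp3) held 1239, 1192 and 1247 CPM summed over the members, those labelled hrp3-CT(hrp1) 305, 257 and 267, and WT 239, 236 and 260. The first group stood apart from both others. The median log2 ratio to WT was 1.45 in libraries labelled hrp1-CT(hrp3), against 1.07 over eligible entries, with 194 of 245 members at 1 or more, and 0.10 in libraries labelled hrp3-CT(hrp1), against 0.08, with 3 members at 1 or more. The 507 eligible entries raised in hrp3Δ of B had medians of 2.56 and 0.07 in that order. edgeR tested 213 members and called 194 higher in libraries labelled hrp1-CT(hrp3) (76.8% of eligible and 33.1% of all entries tested) and 0 lower, with 0 lower at an unadjusted p under 0.05 and 0 by DESeq2. These shares too describe only members that passed the filter on low counts, which a scarce member could pass through a group where it was high. In libraries labelled hrp3-CT(hrp1) it called 11 higher (4.53% of eligible, 4.61% of all entries) and 2 lower (1.55%), and the 11 became 2 to 7 when any of the 6 libraries was left out: 2, 3 and 4 without WT replicates 1, 2 and 3, and 7, 6 and 5 without swap replicates 1, 2 and 3. Compared with each other, 185 members were higher in libraries labelled hrp1-CT(hrp3) (71.4%). The comparisons with WT share the WT libraries.

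Antisense mcm5 had 30.5, 30.4 and 33.3 CPM in libraries labelled hrp1-CT(hrp3), 7.08, 2.69 and 3.17 in those labelled hrp3-CT(hrp1) and 1.68, 0.217 and 1.84 in WT. Its log2 change was 4.37 ± 0.42 (adjusted p = 2.9e-06) in the first and 1.68 ± 0.47 (adjusted p = 0.045) in the second. Antisense clr3, from the gene of a class II histone deacetylase and named after its values were seen, had 11.9, 16.5 and 12.6 CPM in libraries labelled hrp1-CT(hrp3) against 1.54, 0.325 and 0.0067 in WT (4.02 ± 0.61, adjusted p = 0.00011). Both lay far above every WT library. Antisense byr2 had 11.7, 16.5 and 12.02 CPM against 11.1, 11.4 and 10.4, narrowly above WT in every library, and its log2 change of 0.04 ± 0.22 did not pass the test (adjusted p = 0.88). Antisense alx1 was 16.8, 11.7 and 14.5 CPM in libraries labelled hrp1-CT(hrp3), 1.47, 0.827 and 1.15 in those labelled hrp3-CT(hrp1) and 6.35, 6.82 and 6.83 in WT, and it was called higher in the first (0.88 ± 0.21, adjusted p = 0.0031) and lower in the second (−2.55 ± 0.27, adjusted p = 0.00016). The other member called lower was SPBC24C6.03, antisense to a proline tRNA ligase gene, with 19.9, 19.4 and 18.4 CPM against 28.1, 27.8 and 30.3 (−0.58 ± 0.09, adjusted p = 0.0032).

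In prf1Δ of D the median log2 ratio of the members was 1.85, and 1.85 without the 3 libraries, against 1.64 and 1.59 over eligible entries, beside 1.95 and 1.98 for the members and 1.03 and 1.06 for eligible entries in the double mutant. The 507 eligible entries raised in hrp3Δ of B had medians of 2.56 and 2.52 in prf1Δ. Summed levels of the members were 1725, 1446 and 2070 CPM, all above WT and spanning more than the double mutant's 1559 to 1902. edgeR called 101 of the 208 tested members higher than WT (48.6%, against 44.7% of eligible and 16.3% of all entries), and 182 of 240 (68% of eligible) without the 3 libraries. It called 0 lower, with 2 and 0 lower at an unadjusted p under 0.05, and DESeq2 called 0 lower. Leaving out WT replicate 1, WT replicate 2, prf1Δ replicate 1 or prf1Δ replicate 3 gave 49, 59, 63 and 59.

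The triple mutant had summed levels near those of both parents. Without the 3 libraries, the median log2 ratio to WT in libraries labelled hrp1Δhrp3Δprf1Δ was 1.84 against 1.48 over eligible entries, and the 2 usable libraries held 1632 and 1602 CPM summed. With all libraries, where 1 of the 3 was at 0, the median was 1.38. edgeR called 80 of 208 members higher than WT (34.9% of eligible, 13% of all entries), and 168 of 240 (59.3%) without the 3 libraries. Leaving out WT replicate 1 or 2 gave 40 and 42, and leaving out triple mutant replicate 1 or 3 gave 39 and 35. A fit of the 2 groups alone tested 14 members and called 0, with 3 higher at an unadjusted p under 0.05. Against the double mutant, 1 member was called higher (0.722%) and 1 lower (0.076%), namely wdr44 and fap1. Without the 3 libraries 16 were higher (10.4%) and 11 lower (3.18%). The choice of members by their ratio in the double mutant strain bears on both directions of this comparison.

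Directly compared, prf1Δ had 3 members higher than hrp1Δhrp3Δ (2.96% of eligible entries) and 14 lower (2.05%). Without the 3 libraries it had 23 higher (16.9%) and 41 lower (8.78%) of 240 tested, and the lower calls made up 17.1% of the tested members. The rule chose members for a high ratio in this double mutant strain. That choice favours a larger share of lower calls than among eligible entries. The calls with all libraries depended on scaling: 1 higher and 1 lower with DESeq2's size factors in edgeR, 1 higher and 0 lower with TMM factors from protein-coding sense entries, and 3 higher and 16 lower in DESeq2 itself. Leaving out 1 library at a time gave 0 to 8 higher, with 8 without hrp1Δhrp3Δ replicate 1 and 0 without hrp1Δhrp3Δ replicate 3 or any 1 of the prf1Δ libraries (6 to 9 at an unadjusted p under 0.05), and those same 4 fits gave 0 lower. The lower calls numbered 10 without hrp1Δhrp3Δ replicate 1 and 32 without replicate 2. Of the 221 members at a ratio of 1 or more in the double mutant without the 3 libraries, 196 also reached 1 in prf1Δ and 25 did not, and 17 reached 1 in prf1Δ but not in the double mutant.

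**Figure D3:**
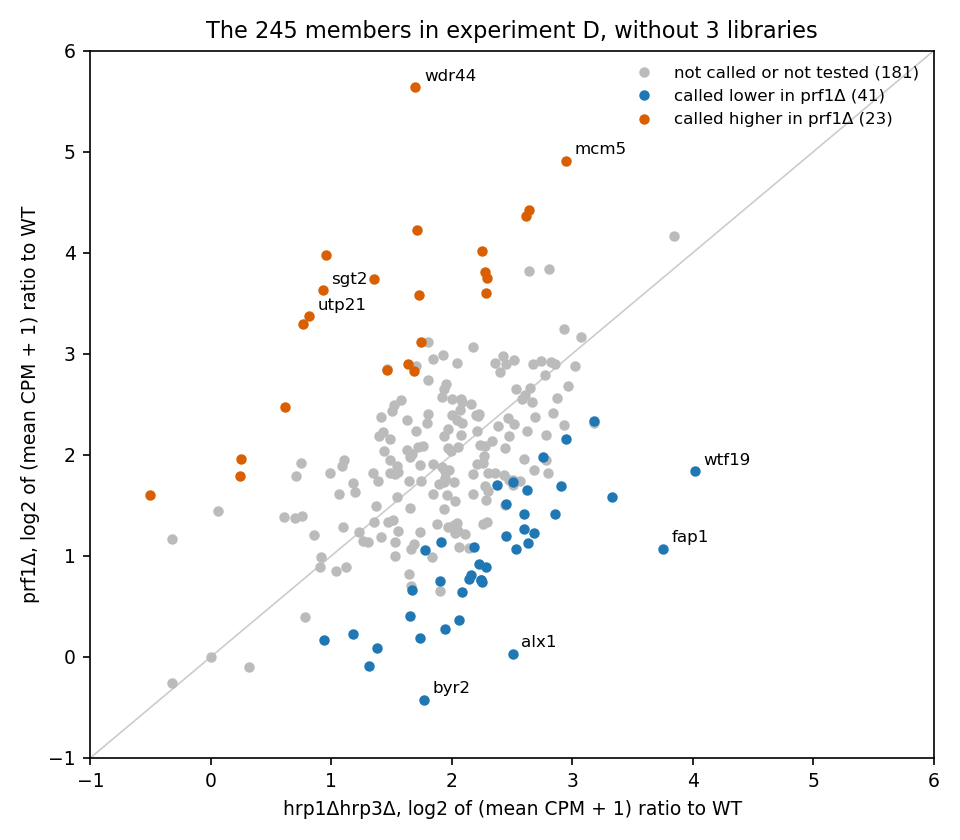
Each point is 1 of the 245 members, placed by its log2 of the (mean CPM + 1) ratio to WT in hrp1Δhrp3Δ (horizontal) and in prf1Δ (vertical) of experiment D without the 3 libraries that stood apart; both axes share the WT libraries. Colours mark the 41 members called lower and the 23 called higher in prf1Δ than in the double mutant by edgeR, and the diagonal marks equal ratios.

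The members lower in prf1Δ than in the double mutant included the highest of B. Antisense alx1 had 9.40, 6.60 and 9.29 CPM in prf1Δ and 5.45 and 6.68 in the usable triple mutant libraries, against 43.5 and 59.3 in double mutant replicates 2 and 3, a log2 difference of prf1Δ from the double mutant of −2.92 ± 0.42 without the 3 libraries (adjusted p = 0.0014) and −4.10 ± 0.97 with them (adjusted p = 0.036). Antisense byr2 had 6.85, 7.22 and 7.65 CPM in prf1Δ against 56.7, 26.9 and 46.4 (−3.55 ± 0.82, adjusted p = 0.033). For both genes prf1Δ and the usable triple mutant libraries lay inside or below the WT range of 3.77 to 21.8 and 7.77 to 17.7 CPM. Antisense fap1 had 1.59, 1.65 and 3.46 CPM in prf1Δ and 0 and 1.34 in the usable triple mutant libraries, against 4.05, 20.4 and 19.1 in the double mutant (prf1Δ less double mutant −3.23 ± 0.64, adjusted p = 0.018). Antisense wtf19, a member of the wtf meiotic drive family, had 0.881, 3.68 and 3.14 CPM in prf1Δ against 8.10, 14.3 and 16.1 (−2.97 ± 0.66, adjusted p = 0.032), with WT at 0 in all 3 libraries. Of the same family, wtf9 and wtf22 were also lower without the 3 libraries. The split of reads among related genes is uncertain and was not tested. Antisense yip11 and yip12, also lower without the 3 libraries, had identical values and are 1 measurement listed under both names.

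Antisense psf1, sld5 and scm3 were lower in prf1Δ as well and are named after their values were seen. Antisense psf1 and sld5, both from genes of the GINS replication complex, had 6.35 and 11.6 CPM and 3.46 and 5.39 CPM in double mutant replicates 2 and 3. In prf1Δ they had 3.19, 1.03 and 3.64 CPM and 1.27, 0.412 and 2.19 CPM (−2.08 ± 0.59, adjusted p = 0.024, and −2.06 ± 0.68, adjusted p = 0.044, without the 3 libraries). Antisense scm3, from the gene of the CENP-A histone chaperone, had 18.5, 9.81 and 12.9 CPM in the double mutant and 5.26, 2.27 and 3.83 in prf1Δ. For psf1 and scm3 every double mutant library lay above WT, whereas sld5 had 0.90 CPM in replicate 1, inside its WT range of 0.707 to 1.01, and was not called above WT without the 3 libraries (adjusted p = 0.061).

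A smaller number of members went the other way. Antisense wdr44 had 82.3, 80.4 and 67.2 CPM in prf1Δ and 78.6 and 57.9 in the usable triple mutant libraries, against 0.45, 4.62 and 3.505 in the double mutant and 0, 1.12 and 0 in WT. Its log2 difference of prf1Δ from the double mutant was 3.94 ± 0.44 (adjusted p = 0.00047) without the 3 libraries. It was named, as were sgt2 and utp21 below, after its values were seen. Antisense mcm5 had 39.3, 31.5 and 37.7 CPM in prf1Δ against 11.7, 9.24 and 7.82 in the double mutant (1.79 ± 0.32, adjusted p = 0.0032, without the 3 libraries; 1.03 ± 0.65, adjusted p = 0.42, with them). Antisense sgt2 (a TPR-repeat co-chaperone) had 18.2, 18.1 and 26.6 CPM against 3.15, 1.54 and 3.24, and antisense utp21 (a U3 snoRNP protein of ribosome assembly) had 17.5, 12.4 and 17.1 CPM against 0.90, 2.31 and 1.35. For sgt2 and utp21 the double mutant itself was not called above WT in D (adjusted p = 0.15 and 0.12 without the 3 libraries). Antisense cdc17, from the gene of the replicative DNA ligase and also named after its values were seen, averaged 16.3 CPM in prf1Δ against 5.91 in the double mutant without the 3 libraries (1.16 ± 0.31, adjusted p = 0.019). For wdr44, mcm5, sgt2 and utp21 the prf1Δ libraries lay above every double mutant library.

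Whether losing prf1 acted alike with and without the CHD remodelers was tested as an interaction in D. edgeR called it negative for 29 of 208 members (9.69% of eligible entries), and for 112 of 240 (28.3%) without the 3 libraries, so for these members the libraries labelled hrp1Δhrp3Δprf1Δ lay below the sum of the separate log2 changes. The rule chose the members for a high ratio in the same hrp1Δhrp3Δ strain, whose change in D is subtracted in this term. A larger share of negative terms than among eligible entries is thus favoured by the choice and is no finding about the members.

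**Figure D4:**
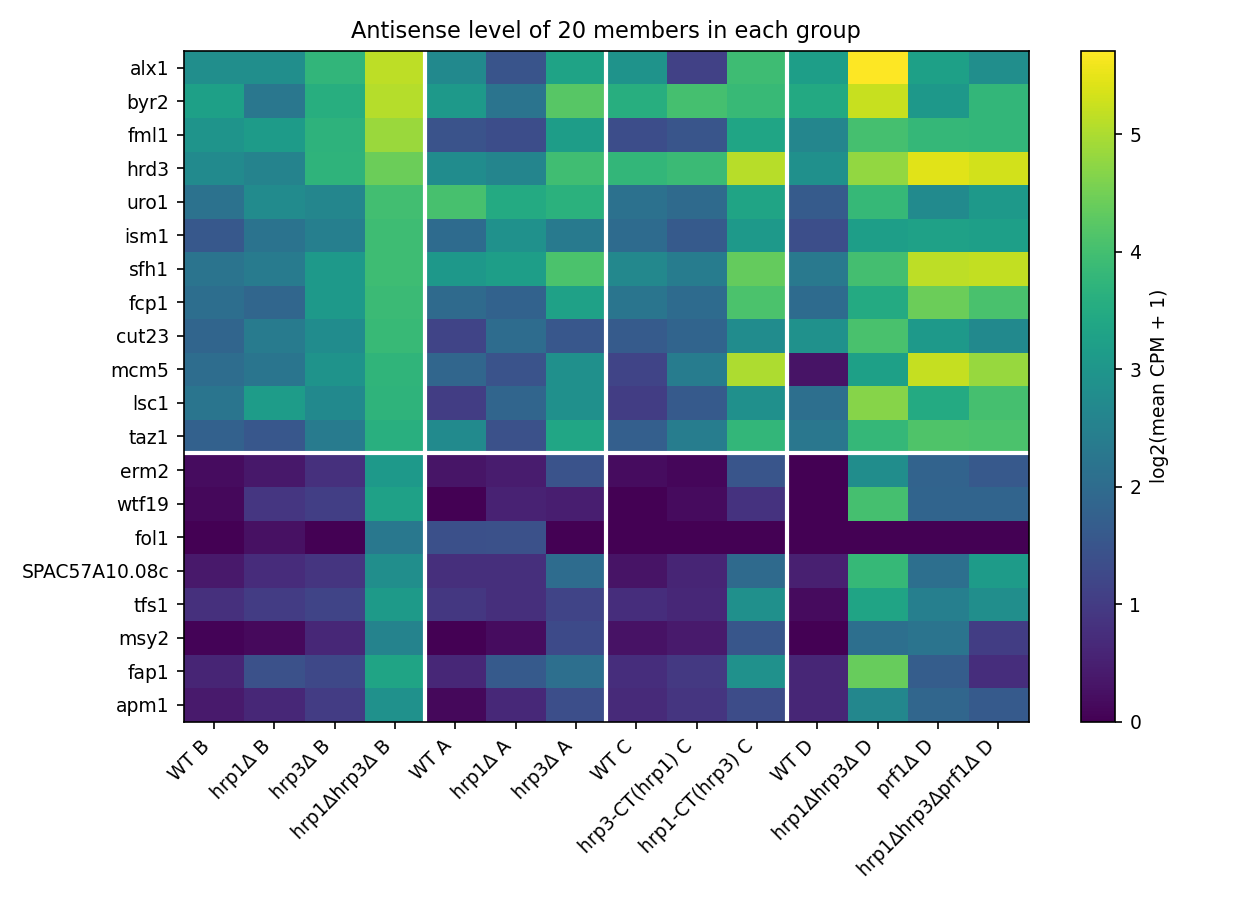
Mean antisense level, as log2(mean CPM + 1), of 20 members in 14 groups of experiments B, A (batch 1), C and D, with the 12 of highest level in the double mutant of B above the white line and the 8 of widest margin over the single mutants below it; D is drawn without the 3 libraries that stood apart. The rows of alx1, byr2, wtf19 and fap1 are bright in hrp1Δhrp3Δ of B and D and darker in prf1Δ, whereas that of mcm5 is brightest in prf1Δ, and fol1 is dark throughout D.

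Of the 244 host sense transcripts tested in hrp1Δhrp3Δ of D, edgeR called 1 higher and 0 lower, beside 22 higher and 13 lower of all 4918 protein-coding sense entries. DESeq2 also called 1 host higher and 0 lower, beside 29 and 7 of 4865. With the 3 libraries left out 1 host was higher and 24 were lower, beside 68 and 377 of 4962. With TMM scaling the median log2 change was −0.70 for the hosts and −0.67 for all these entries, and with TMM factors from protein-coding entries it was −0.16 and −0.12. Sense byr2 had 53.9, 33.6 and 8.62 CPM in WT of D and 5.85, 56.8 and 41.0 in the double mutant, where the lowest value of each group came from a library that stood apart. In B, used by the rule, sense byr2 was 24.5, 25.03 and 20.7 CPM in WT and 39.2, 40.8 and 42.4 in the double mutant.

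The hosts were of ordinary length and make-up. Median length was 1281 bases against 1275 over eligible entries and median GC content 39.1% against 39.7%. The median host sense level in WT of B was 12.7 TPM against 16.4. A convergent neighbour was present for 54.3% of members and 54.97% of eligible entries, a coding gene overlapped on the antisense strand for 40.4% and 38.5%, and an annotated long non-coding RNA overlapped there for 86.5% and 78.4%. Reads of such neighbours and of cryptic antisense initiation cannot be told apart where they overlap. Members lay on chromosomes I, II and III in numbers of 116, 83 and 46, beside 1656, 1406 and 662 eligible entries.

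By keywords in their product names, hosts fell into functional groups at shares given beside those of the eligible genes. Kinases and phosphatases made up 19 of 245 (7.76%, against 7.27% of eligible), among them byr2, ppk24, atg1 (autophagy), mcs6 (the kinase of TFIIH) and fcp1 (the phosphatase of the polymerase C-terminal domain). Genes of translation made up 20 (8.16% against 6.76%), such as ism1 (an isoleucine tRNA ligase) and mrpl9. Genes of transcription or chromatin made up 16 (6.53% against 5.93%), including clr3, fft1, scm3, tfs1 and mst1 (a histone acetyltransferase). Meiotic genes numbered 9 (3.67% against 3.19%), with 3 of the wtf family, and transporters 5 (2.04% against 5.10%). These shares are descriptions of an outcome-chosen list.

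Genes of the machinery that guards against cryptic transcription were measured as sense transcripts, 30 of them across the CHD remodelers, Paf1 complex and Prf1, H2B ubiquitin ligase, Set2, histone chaperones, Clr6 complex and H2A.Z exchange. None hosted a member. Shares of all protein-coding sense entries called in the same direction stand in brackets. In hrp1Δhrp3Δ of D 1 was called, hrp3 itself, which was lower (0.264%), and without the 3 libraries hrp1, hrp3 and leo1 (a Paf1 complex subunit) were lower (7.60%). In prf1Δ 2 were lower (3.86%), cdc73 (Paf1 complex) and brl1 (H2B ubiquitin ligase), and 9 without the 3 libraries (34.9%), hrp1 and prf1 among them. Sense hrp1 changed there by −1.78 ± 0.34 (edgeR adjusted p = 0.0018), and by −1.46 ± 0.87 with all libraries (adjusted p = 0.28). Sense hrp3 was called in neither fit. In libraries labelled hrp1Δhrp3Δprf1Δ 1 was lower (3.17%), hrp3, and 10 without the 3 libraries (27.7%), among them hrp1, hrp3 and prf1. In libraries labelled hrp1-CT(hrp3) 20 of 30 were called lower (49.4%), with a median log2 change of −0.23 beside −0.24 over all entries. In libraries labelled hrp3-CT(hrp1) 2 were higher (5.04%), rhp6 and alp13, and 1 lower (4.47%), hrp3. In libraries labelled hrp3Δ of A 8 were higher (14.0%) and 6 lower (21.0%), and in hrp1Δ 6 were higher (14.1%) and 3 lower (12.1%).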

How the data were processed

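Strand-specific mRNA-seq of 72 libraries was analysed from per-library tables. According to the deposited files and the methods, the authors pseudoaligned reads with kallisto against ASM294v2 (Ensembl release 55) transcripts and their reverse complements, which gave estimated counts and TPM values per entry; the deposited expected (estimated) counts were rounded to whole numbers for tests. CPM was computed as estimated count over library total. Members and gene lists were chosen with earlier results of these data known. Tests were edgeR 4.0.16 quasi-likelihood fits (R 4.3.3, limma 3.58.1), 1 per experiment or batch with all its groups, TMM scaling, filterByExpr (minimum count 10, minimum total 15), two-sided, Benjamini-Hochberg over all entries, calls at adjusted p under 0.05. They were checked on simulated counts whose spread between replicates was smaller than in D and in batch 1 of A. That check therefore does not cover the tests there. DESeq2 1.42.0, other scalings and filters, the replicate number as a block and left-out libraries were alternatives. Fold changes are on the log2 scale. Python 3.11.15 scripts drew the figures. Named members were the 12 with a host symbol and the highest CPM in hrp1Δhrp3Δ of B, the 8 with the widest margin over the single mutants, the 3 nearest inside and outside each limit, members called lower than WT in C or D, and the deleted genes. Other members were named after their values were seen, whether or not this is said beside them, or as examples of host groups. Sense entries of 30 pathway genes (31 names, of which asf1 and cia1 share an ID) formed a list. Names and sequences came from RefSeq ASM294v3, matched by gene ID, with no coordinates printed. TPM set only the sense levels of hosts and 1 alternative rule. Counts per library set the precision: 1 count was worth 0.0551 to 2.13 CPM in libraries labelled hrp3Δ of A.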

Additional observations from a re-analysis of the deposited data

Results flagged for a closer look

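An interaction of prf1 loss with loss of the CHD remodelers was called for some members. The term, in the edgeR fit of D and added after the data were seen, was called negative for 29 of the 208 members tested (9.69% of eligible entries) and positive for 0 (0 at an unadjusted p under 0.05 as well). Without the 3 libraries that stood apart it was negative for 112 of 240 (28.3% of eligible entries) and positive for 0, with 1 positive at an unadjusted p under 0.05. A negative term means that the triple mutant lay below the level that the log2 changes of prf1Δ and hrp1Δhrp3Δ would add up to. As the rule chose the members for a rise in hrp1Δhrp3Δ, it favours a share of negative terms above that of eligible entries. For antisense alx1 the term was −2.90 ± 0.73 (adjusted p = 0.026) without the 3 libraries, and −2.22 ± 1.35 (adjusted p = 0.52) with them. For antisense byr2 it was −0.81 ± 0.58 (adjusted p = 0.38) without them. Terms for members at or near 0 in WT depend on the prior count and give no size. The triple mutant rests on 2 usable libraries. Sense hrp1 in them lay below the usable WT libraries but above the usable hrp1Δhrp3Δ libraries, so it goes against their label in part. In prf1Δ sense hrp1 was also called below WT without the 3 libraries. What these levels add to the term was not tested.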

How the results depend on the processing

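Without the 3 libraries of D that stood apart 182 members were higher in prf1Δ than in WT, 168 in hrp1Δhrp3Δprf1Δ, 23 in prf1Δ than in hrp1Δhrp3Δ and 16 in the triple than in the double mutant, 25 host sense entries were called and the interaction was called for 112. Fits of the 2 groups alone gave 0 for hrp1Δhrp3Δ (82 at an unadjusted p under 0.05), 0 for the triple mutant (3), 1 for prf1Δ against the double mutant, 0 for the triple against the double mutant (3), 3 for hrp3-CT(hrp1), and in A 1 for hrp1Δ and 17 for hrp3Δ. With DESeq2's size factors or with TMM factors from protein-coding sense entries, prf1Δ against the double mutant gave 1 and the triple against the double mutant 0 (8 and 6 unadjusted). The last comparison also gave 0 with no low-count filter and with at least 1 CPM in 3 libraries (12 unadjusted in both), and 1 by DESeq2. With no filter A gave 9 for hrp1Δ, 106 for hrp3Δ and 67 for hrp3Δ against hrp1Δ. With at least 1 CPM these were 6, 82 and 55, and hrp3-CT(hrp1) gave 7. Shares of eligible entries were not computed for fits with other filters. Choosing members with 5 CPM added gave 52, of which 2 were among the 245. With TPM in place of CPM it gave 120, of which 58 were, and with TMM-scaled library totals 192, of which 137 were.

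Leaving out 1 library at a time gave 53 to 193 for hrp1Δhrp3Δ in D, 49 to 135 for prf1Δ, 35 to 115 for the triple mutant, 0 to 8 for prf1Δ against the double mutant, 0 to 4 for the triple against the double mutant, 2 to 7 for hrp3-CT(hrp1), and 0 to 6 for hrp1Δ and 32 to 49 for hrp3Δ in A. In B it gave 219 to 271 members chosen and kept 174 to 243 of the 245. The cause was not tested.

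Replicate numbers did not pair the libraries: deviations of same-numbered libraries correlated above 0.1 in 20 of 135 pairs in batch 1 of A, 1 of 9 in batch 2, 0 of 9 in C and 4 of 18 in D. With the replicate number as a block the counts were 112 for hrp1Δhrp3Δ, 89 for prf1Δ, 53 for the triple mutant, 2 and 0 against the double mutant, and 192, 5 and 180 in C.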
